A study of Mus musculus with 18 samples.

Results

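The collagen family genes of mouse were described in cultured neurons of the dorsal root ganglia (DRG), which lie along the spinal cord and carry touch, pain and position sense. Members were all rows of the deposited gene table whose symbol has the form Col, a number, a and a number, which gave 43 of 17198 genes. The rule that picks the rows uses the symbol and no measured value. The GENCODE annotation holds 44 such genes, and Col9a1 is the 1 that has no row in the table. Cultures were wild type (WT) or Dynlrb1(tm1a/+) heterozygotes (HET), taken at 12, 24 and 48 h in culture, with 3 biological replicates in each of the 6 groups. WT cultures carry no stated allele or treatment, and HET cultures still have 1 intact copy of Dynlrb1, a light chain of the motor protein dynein. The labels call the cells DRG neurons and give neither the animals' age nor whether replicates were separate animals or separate cultures, so the p-values measure the spread between these samples, part of which may be technical.

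Collagens are secreted or membrane proteins built from chains that wind around each other into a helix. Fibrillar collagens (types I, II, III, V, XI, XXIV and XXVII) assemble into the fibrils of connective tissue. Type IV forms the sheet-like network of basement membranes, type VI forms beaded filaments, and the fibril-associated collagens coat fibrils. In peripheral nerve and ganglia, fibroblasts and Schwann cells are known producers of the fibrillar, type IV and type VI chains that surround axons and their glia. A sensory neuron culture from a ganglion can hold such cells beside the neurons.

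Dynlrb1 was lower in each HET culture than in any WT culture, which is the direction the genotype labels give. Its normalized counts ran from 5229 to 6674 in WT and from 2716 to 4087 in HET, an averaged log2 difference of -0.83 (limma adjusted p = 2.85e-05, SE 0.071). Taken by time, it was called at 24 h (limma adjusted p = 0.0390) and not at 12 h (0.0655) or 48 h (0.0501). A gene that is not called between genotypes at a single time may therefore still differ. The 10 sensory neuron markers summed to between 4562 and 6413 FPKM (a fragment count divided by transcript length and library size) in all 18 libraries. None of the listed markers of fibroblasts, mural cells, satellite glia, endothelium or macrophages was at 0 in any library. The deposited FPKM values hold no 0 for any gene, so this does not show that such cells were present. Sequencing depth cannot be read from the deposited values, whose totals were scaled to between 41509705 and 41509874, so precision rests on the replicates alone. The lowest and highest correlation of log2 values between libraries of a group, taken over genes, were 0.978 and 0.992.

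Replicate 3 had the lowest summed collagen FPKM of the 48 h cultures in each genotype. In WT its sum was 336 FPKM against 515 and 531, and its fibrillar sum was 165 against 281 and 306. In HET its sum was 217 FPKM against 382 and 364, and its fibrillar sum was 75.6 against 203 and 157. HET 48 h replicate 3 had a Col5a2 normalized count of 5836 against 17046 and 16671 in the other HET cultures at 48 h, and a Col1a2 count of 2342 against 10001 and 7293. Its Col13a1 count was 337 against 71.9 and 81.6. For these genes it lay nearer to the 12 and 24 h cultures than to its own group. For the collagens called from 12 to 48 h in HET, values without HET 48 h replicate 3 are also given below. For the genotype differences at 48 h, they are given for some collagens only. For WT 48 h replicate 3, only counts and calls without it are given. Other values below, among them those of the gene lists beside the collagens, are given with both libraries included.

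Levels of different genes were compared as FPKM, which is per length. Averaged over the 18 libraries, 20 of the 43 collagens had at least 1 FPKM and 39 had at least 0.1. Col4a1 led with 50.1 FPKM, followed by Col5a2 with 45.7, Col4a2 with 32.2 and Col18a1 with 29.0. These 4 genes held 54.5% of the summed collagen FPKM, the first 8 held 76.6% and the first 14 held 91.6%. Col1a2 (18.5 FPKM), Col8a1 (16.6), Col12a1 (14.4) and Col5a3 (14.2) completed the first 8. The most abundant collagens in these cultures thus came from several structural classes. At the low end, Col17a1, Col4a4, Col4a6 and Col6a4 were each between 0.072 and 0.093 FPKM.

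Promoter sequence is shown for 5 collagens that changed strongly with time. Col3a1, Col5a1 and Col5a3 rose and Col13a1 and Col25a1 fell, and each has a window free of annotated exons. Each line is the stretch of 250 bases before the gene start, 5′ to 3′ on the gene's strand, from RefSeq on GRCm38.p6 (the mm10 assembly), in which 34 of the 43 collagens had an entry. The windows are chr1:45311288-45311537 for Col3a1, chr2:27886175-27886424 for Col5a1, chr9:20815068-20815317 (minus strand) for Col5a3, chr10:61979109-61979358 (minus strand) for Col13a1 and chr3:130180595-130180844 for Col25a1. Capitals mark 3 short motifs searched on both strands. They are the CCAAT box, the TATA box written as TATAAA, and the GC box, whose letters are GGGCGG, and no 2 of these matches overlap.
Col3a1: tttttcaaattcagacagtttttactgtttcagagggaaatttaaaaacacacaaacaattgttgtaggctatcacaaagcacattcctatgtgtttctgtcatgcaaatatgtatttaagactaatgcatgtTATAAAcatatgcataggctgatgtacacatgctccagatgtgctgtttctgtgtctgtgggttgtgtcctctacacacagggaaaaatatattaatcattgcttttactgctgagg
Col5a1: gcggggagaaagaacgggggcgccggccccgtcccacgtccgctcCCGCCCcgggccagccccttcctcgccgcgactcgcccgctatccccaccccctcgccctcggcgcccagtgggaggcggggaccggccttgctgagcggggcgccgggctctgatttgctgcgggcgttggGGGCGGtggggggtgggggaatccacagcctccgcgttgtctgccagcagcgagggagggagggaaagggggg
Col5a3: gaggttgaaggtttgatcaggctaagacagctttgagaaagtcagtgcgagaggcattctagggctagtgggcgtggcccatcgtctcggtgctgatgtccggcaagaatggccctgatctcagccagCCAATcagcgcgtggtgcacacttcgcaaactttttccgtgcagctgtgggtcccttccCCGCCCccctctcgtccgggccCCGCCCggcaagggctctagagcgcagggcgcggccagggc
Col13a1: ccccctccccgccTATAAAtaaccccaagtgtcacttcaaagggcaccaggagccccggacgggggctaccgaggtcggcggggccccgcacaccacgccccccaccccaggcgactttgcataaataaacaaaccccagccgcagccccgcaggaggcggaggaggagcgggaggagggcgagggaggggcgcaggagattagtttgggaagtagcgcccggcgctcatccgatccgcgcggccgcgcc
Col25a1: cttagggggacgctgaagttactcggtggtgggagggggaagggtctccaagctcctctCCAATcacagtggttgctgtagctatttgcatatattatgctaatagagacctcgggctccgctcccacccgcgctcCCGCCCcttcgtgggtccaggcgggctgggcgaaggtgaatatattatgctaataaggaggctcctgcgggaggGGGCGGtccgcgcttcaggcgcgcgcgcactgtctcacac

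The window of Col3a1 held TATAAA from 117 to 112 bases before the start and had a GC content of 35.2%. The windows of Col5a1 and Col5a3 each held GGGCGG in 2 places, and that of Col5a3 also held CCAAT. The Col13a1 window held TATAAA from 237 to 232 bases before the start, and the Col25a1 window held CCAAT and 2 matches of GGGCGG. None of these 3 motifs was present in the windows of all 3 rising genes. Of 36 collagen windows, 61.1% held GGGCGG on either strand, against 32.7% of 32851 windows of all genes. This motif consists of G and C only, and the 2 sets of windows were not matched for GC content. The median GC content over all windows was 52.4%, and the collagen windows ran from 35.2% (Col3a1) to 76.4% (Col5a1). The shares for CCAAT were 33.3% and 33.8%, and those for TATAAA were 13.9% and 12.4%. The RefSeq start of Col25a1 lies inside the GENCODE span of the gene, which begins upstream of it. These matches describe letters and were not tested for binding or activity.

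The first comparison asked how collagen expression moved as WT cultures aged from 12 to 48 h. In WT, 13 collagens rose and 6 fell at a limma adjusted p under 0.05, 30.2% and 14% of the family. Over all genes tested, 47.1% were called, 30.0% as higher and 17.1% as lower, so the family's counts are near the background. The fibrillar class moved most: 7 of its 11 members rose, Col1a2, Col5a1, Col5a2, Col3a1, Col5a3, Col1a1 and Col2a1, and 2 fell, Col27a1 and Col11a2. Its median log2 fold change was 1.92, against 0.11 over all genes and 0.054 over all 43 collagens. In RNA from mixed cultures, more cells of a type and more RNA per cell cannot be told apart. The choice of deposited column shifted the median: with the plain adjusted columns the median over all genes was 0.0069 and that over the collagens was -0.051, with 21 members above 0 in place of 25.

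Col1a2 (ENSMUSG00000029661, chr6:4504814-4541544), the second chain of type I collagen, had the largest rise. Its normalized counts in WT were 2441, 1277 and 964 at 12 h, 1994, 1301 and 1561 at 24 h, and 14386, 11053 and 7379 at 48 h. Each WT culture at 48 h lay above all 6 earlier WT cultures, and 12 and 24 h overlapped. The log2 fold change from 12 to 48 h was 2.87 (limma adjusted p = 1.03e-04, SE 0.43). In HET the counts were 1596, 829 and 1020 at 12 h, 1545, 1699 and 2265 at 24 h, and 10001, 7293 and 2342 at 48 h. The lowest HET culture at 48 h was barely above the highest at 24 h. The HET log2 fold change was 2.33 (limma adjusted p = 0.0121, SE 0.43), and 2.95 (limma adjusted p = 7.91e-05) without replicate 3 at 48 h.

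Col5a2 (ENSMUSG00000026042, chr1:45374321-45503282, minus strand), a chain of the type V collagen that starts and narrows fibrils, was the most abundant fibrillar collagen. In WT it had normalized counts of 9041, 6328 and 4790 at 12 h, 9369, 8131 and 9929 at 24 h, and 35740, 44017 and 15138 at 48 h. The WT groups at 48 and 24 h did not overlap, and WT 48 h replicate 3 was lower than the other WT cultures of that time. In HET it had 4437, 3498 and 4420 at 12 h, 8075, 10942 and 12457 at 24 h, and 17046, 16671 and 5836 at 48 h. From 12 to 48 h the change on the log2 scale was 2.15 in WT (limma adjusted p = 3.38e-04, SE 0.38) and 1.53 in HET (limma adjusted p = 0.0201, SE 0.38), and 2.04 in HET without replicate 3 at 48 h. HET cultures were already higher at 24 h than at 12 h without overlap, a log2 fold change of 1.33 (limma adjusted p = 0.0228, SE 0.38). That call was lost without HET 12 h replicate 2 or HET 24 h replicate 2 or 5, with limma adjusted p from 0.0545 to 0.0999.

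Col5a1 (ENSMUSG00000026837, chr2:27886425-28039514), the partner chain of Col5a2, had WT counts of 1138, 704 and 701 at 12 h and 5069, 4527 and 2841 at 48 h. The groups were well apart, with a log2 fold change of 2.28 (limma adjusted p = 1.45e-04, SE 0.36). At 24 h, WT counts were 1014, 923 and 843, within the range at 12 h. In HET it had 660, 438 and 671 at 12 h and 3477, 2537 and 870 at 48 h, a log2 fold change of 1.77 (limma adjusted p = 0.0129, SE 0.36). Exons of Col5a1 overlap those of 2810430I11Rik and Gm13372 on the other strand, and because strand use in counting is not given in the sources used here, reads of these genes may be mixed.

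Col3a1 (ENSMUSG00000026043, chr1:45311538-45349706), the single chain type of collagen III, is common in compliant tissue together with type I. Its WT counts were 2161, 951 and 503 at 12 h, 1498, 655 and 618 at 24 h, and 4601, 4430 and 3764 at 48 h. Its HET counts were 1348, 754 and 699 at 12 h, 828, 680 and 833 at 24 h, and 5917, 3728 and 1655 at 48 h. For WT and HET alike, every 48 h culture lay above all 24 h cultures. From 12 to 48 h the change on the log2 scale was 2.07 in WT (limma adjusted p = 0.00208) and 1.89 in HET (limma adjusted p = 0.0202). From 24 to 48 h the log2 fold change was 2.33 in WT (limma adjusted p = 0.00406, SE 0.47) and 2.09 in HET (limma adjusted p = 0.0338, SE 0.47). The annotated gene Gm47302 overlaps exons of Col3a1 on the same strand, so its reads may be counted with either gene.

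Col1a1 (ENSMUSG00000001506, chr11:94936224-94953042), the other chain of type I collagen, varied more between replicates. WT cultures had 1594, 646 and 364 at 12 h and 4710, 2330 and 1848 at 48 h. HET cultures had 1254, 327 and 345 at 12 h and 5925, 2163 and 4210 at 48 h. Both genotypes were higher at 48 h without overlap, by a log2 fold change of 1.92 in WT (limma adjusted p = 0.0142, SE 0.59) and 2.85 in HET (limma adjusted p = 0.0135, SE 0.59). For this gene HET 48 h replicate 3 was not the low culture, unlike for Col1a2. The FPKM ratio of Col1a2 to Col1a1 was 3.59 ± 0.77 (SD, n = 3) in WT at 48 h and ranged from 0.508 to 3.08 in HET at 48 h.

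**Figure D1:**
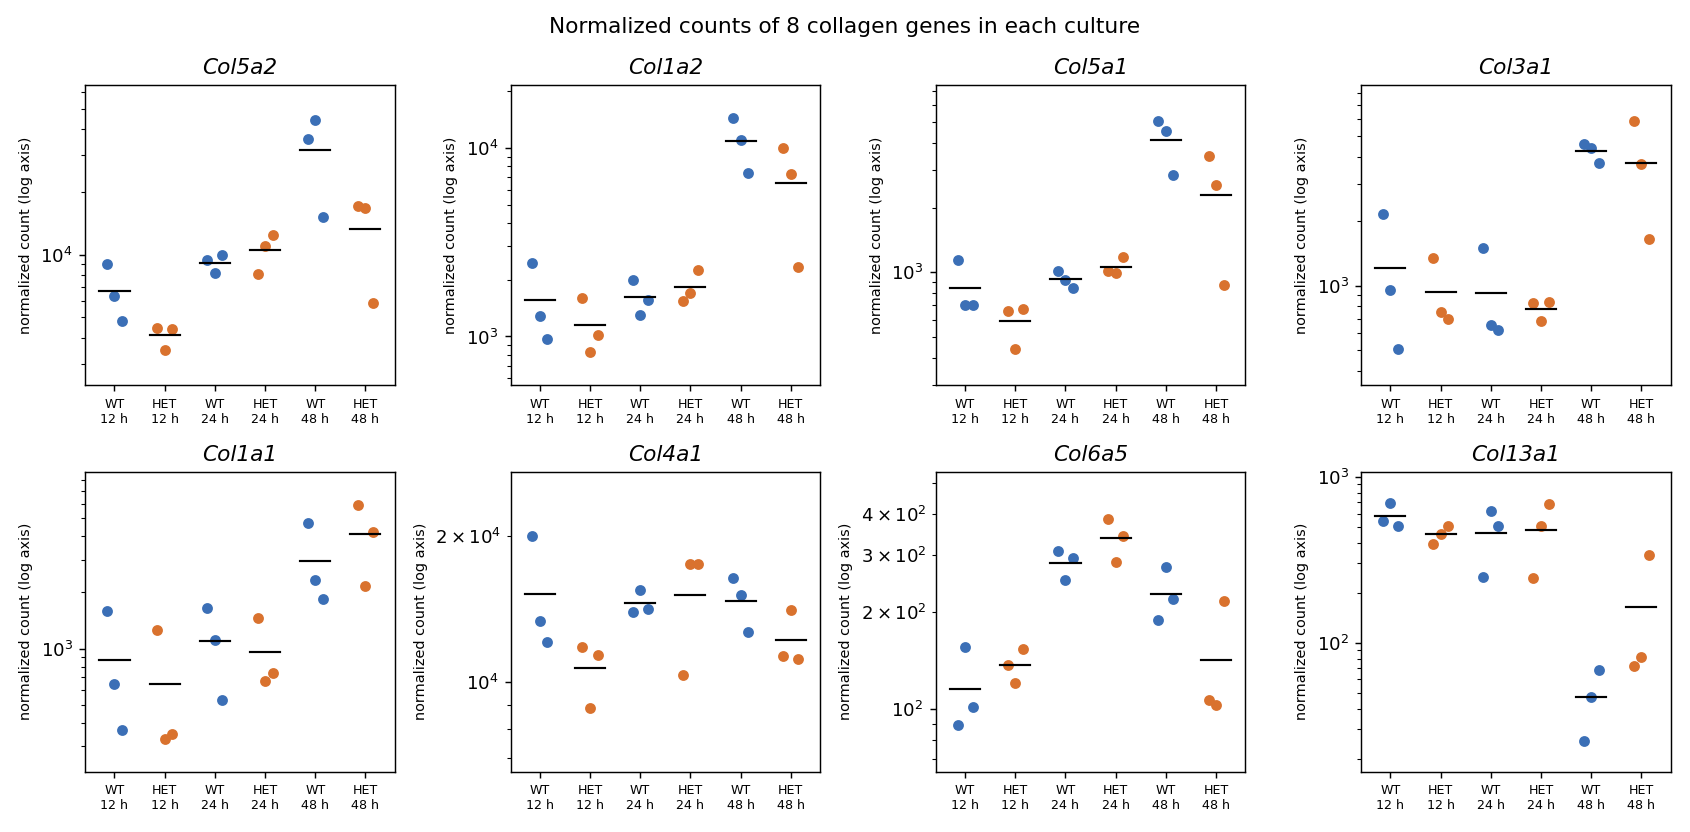
Normalized count of 8 collagen genes (y, log axis) in each of the 18 cultures by genotype and time (x); points are cultures and bars are group means. Col5a2, Col1a2, Col5a1, Col3a1 and Col1a1 were highest at 48 h, Col4a1 stayed between 8860 and 20073, Col6a5 was highest at 24 h, and Col13a1 fell at 48 h.

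The other fibrillar members split. Col5a3, the third type V chain, had a log2 fold change from 12 to 48 h of 1.95 in WT (limma adjusted p = 5.37e-04, SE 0.37) and 1.3 in HET (limma adjusted p = 0.0311, SE 0.37). Col2a1, known from cartilage, rose in WT from 80.2 to 175 mean normalized counts. Col11a1, a chain of the minor cartilage fibril collagen XI, was not called by limma from 12 to 48 h in either genotype with every library. In HET its change on the log2 scale was 1.08 (limma adjusted p = 0.0687), 1.57 without HET 48 h replicate 3 (limma adjusted p = 0.00372), and 1.25 in the authors' deposited table (adjusted p = 0.00771). From 24 to 48 h it rose in both, by a log2 fold change of 1.48 in WT (limma adjusted p = 0.0115, SE 0.39) and 1.67 in HET (limma adjusted p = 0.0361, SE 0.39). Col27a1 and Col11a2 fell in WT by 0.99 and 0.70 on the log2 scale. Col24a1 was called in neither genotype.

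In HET, 11 collagens rose and 1 fell from 12 to 48 h, 25.6% and 2.33% of the family, against 10.6% and 3.62% of all genes (14.2% in either direction). The risers were the fibrillar Col1a1, Col1a2, Col3a1, Col5a1, Col5a2 and Col5a3, with Col6a3, Col6a4, Col8a1, Col9a2 and Col16a1, and all 11 were also called as higher in WT. The median over the family was a log2 fold change of 0.33, against 0.10 over all genes. These calls depend on single libraries. Without HET 12 h replicate 2, HET 48 h replicate 1 or HET 48 h replicate 2, limma called 0 collagens and 0 of all genes. In those fits 13 to 15 collagens had an unadjusted p under 0.05, against 21.7% to 24.2% of all genes. With every library there were 16, 37.2% against 32.0% of all genes. Without HET 12 h replicate 1 limma called 6, against 6.53% of all genes. Without HET 48 h replicate 3 it called 16, 14 higher and 2 lower, against 28.4% of all genes. Without that library the changes on the log2 scale were 2.78 for Col1a1, 2.95 for Col1a2, 2.39 for Col3a1, 2.36 for Col5a1, 2.04 for Col5a2 and 1.77 for Col5a3. Those of Col6a3, Col9a2, Col6a4, Col16a1 and Col8a1 were 1.62, 1.35, 1.18, 1.11 and 1.08. Col11a1, Col12a1, Col2a1 and Col25a1 were called by limma in addition, and all 12 genes called with it were called again.

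**Figure D2:**
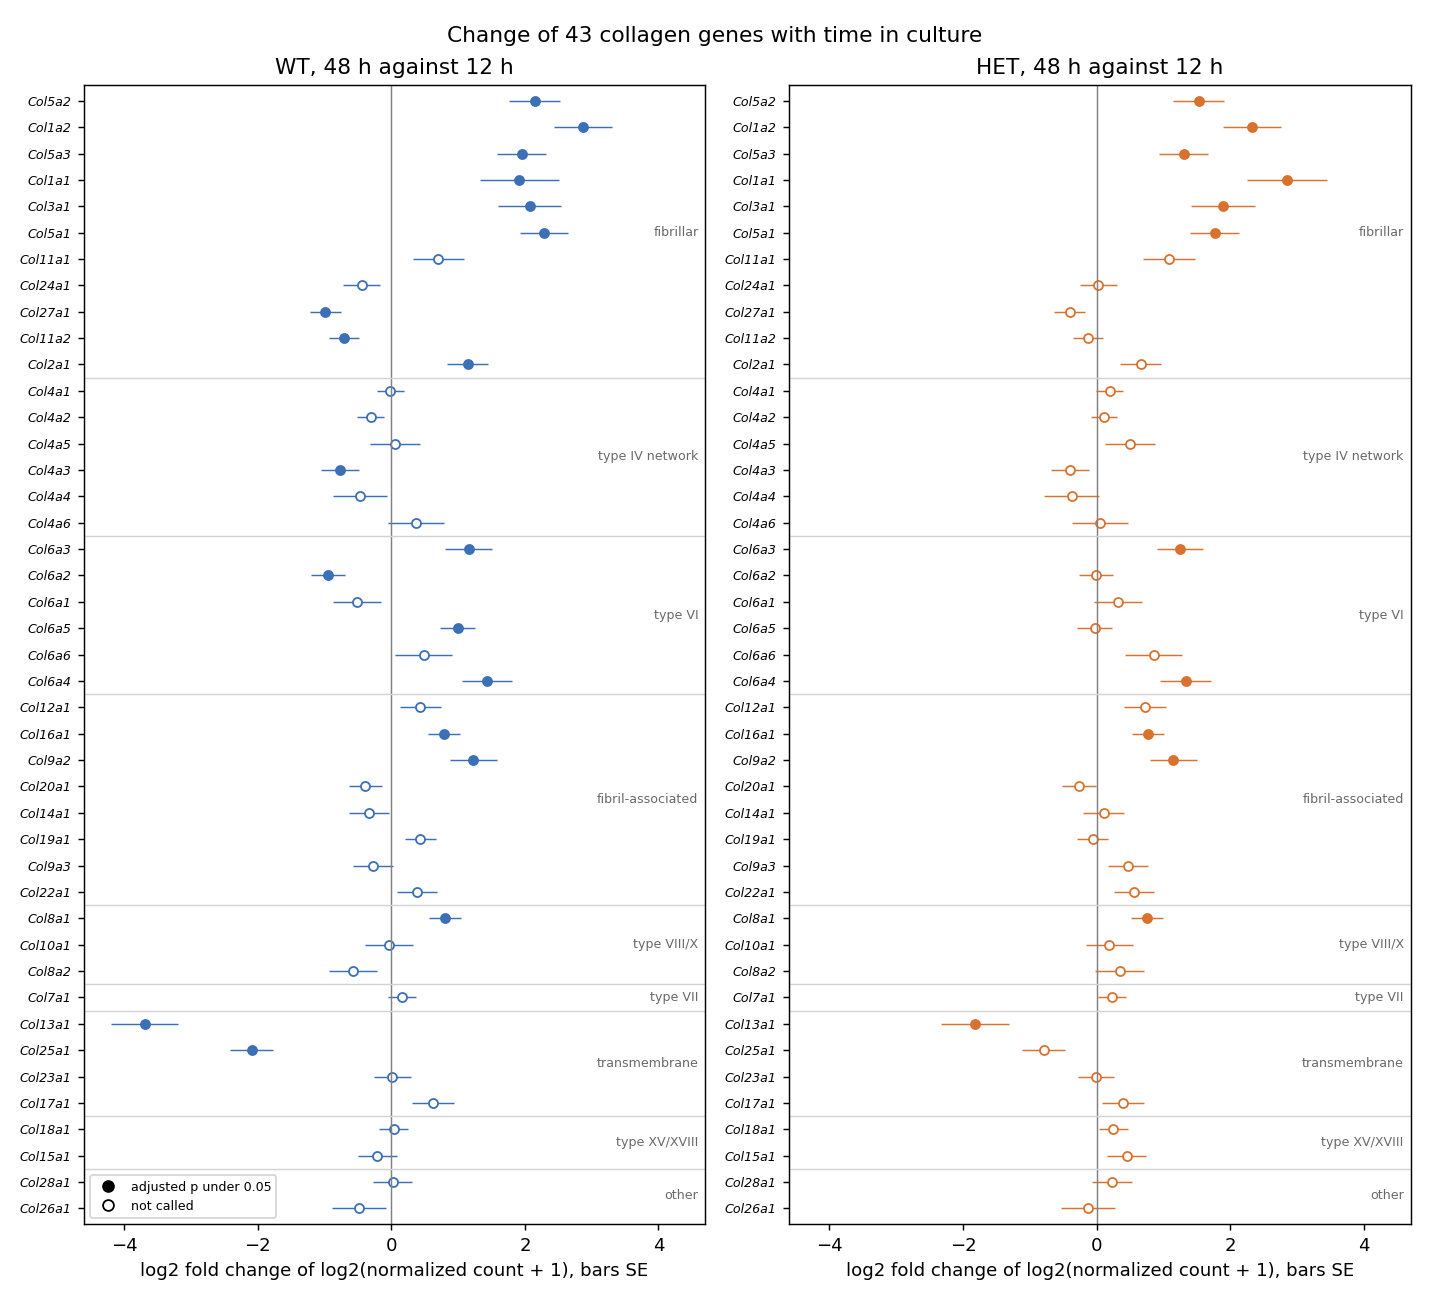
Log2 fold change from 12 to 48 h (x, on log2(normalized count + 1), bars SE) of each of the 43 collagens (y, by class and then by level) in WT (left) and HET (right); filled points have a limma adjusted p under 0.05. Col1a1, Col1a2, Col3a1, Col5a1, Col5a2 and Col5a3 lie right of 0 in both panels, and Col13a1 lies far left.

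Type IV collagen behaved differently from the fibrillar class. Col4a1 (ENSMUSG00000031502, chr8:11198423-11312826, minus strand) and Col4a2, the ubiquitous chains of basement membrane, were not called by limma for time in either genotype with every library. Both were called as higher in HET from 12 to 24 h without HET 24 h replicate 1, and the authors' deposited table gives Col4a2 a log2 fold change of 0.52 there (adjusted p = 0.0447). Col4a1 normalized counts in WT were 20073, 13404 and 12093 at 12 h and 16405, 15114 and 12703 at 48 h, so the groups overlapped. Its log2 fold change was -0.016 in WT and 0.19 in HET (SE 0.20 for both, limma adjusted p = 0.957 and 0.530). The FPKM ratio of Col4a1 to Col4a2 had group means between 1.41 and 1.74. Of the minor chains, Col4a3 fell in WT by 0.77 on the log2 scale (limma adjusted p = 0.0351) from a mean of 48.6 normalized counts, and Col4a4, Col4a5 and Col4a6 were not called.

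Shares of the family's FPKM shifted between these classes. In WT, fibrillar genes held 21.6% ± 3.2 (SD, n = 3) of summed collagen FPKM at 12 h, 27.0% ± 4.0 at 24 h and 53.8% ± 4.3 at 48 h. Type IV genes held 36.6% ± 0.68 at 12 h and 18.9% ± 2.9 at 48 h in WT. In HET the fibrillar share was 21.9% ± 1.7 at 12 h and 43.7% ± 9.1 at 48 h, and the type IV share was 35.3% ± 2.1 and 23.5% ± 7.0. HET 48 h replicate 3 had the lowest fibrillar share of its group (34.9%) and the highest type IV share (31.3%). For both classes and both genotypes the 12 and 48 h cultures did not overlap in share. Summed type IV FPKM itself was 94.8 ± 24.6 at 12 h and 85.3 ± 11.6 at 48 h in WT, so its share fell while its level stayed within the replicate spread. Summed over the family, FPKM was 258 ± 63.1 and 461 ± 109 at these times in WT and 181 ± 23.0 and 321 ± 90.5 in HET.

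**Figure D3:**
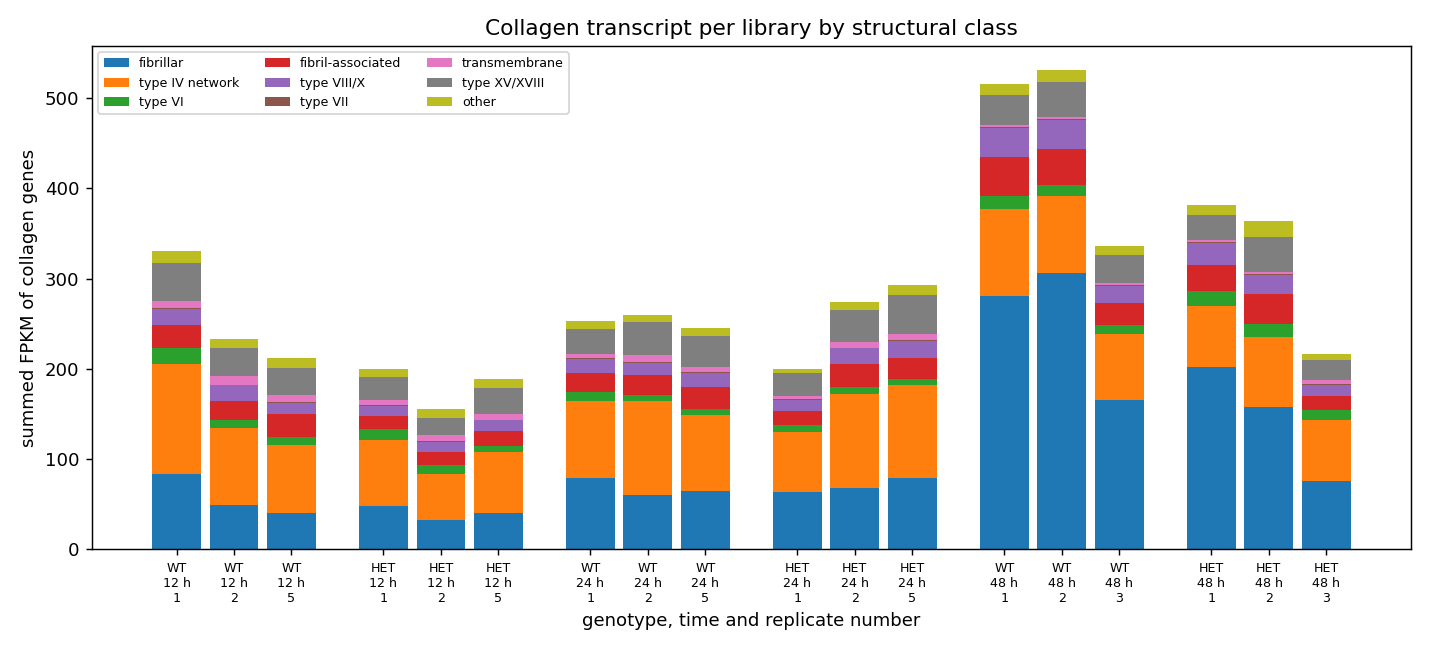
Summed FPKM of the collagen genes (y) in each library (x, genotype, time and replicate number), stacked by structural class. The fibrillar part is between 165 and 306 FPKM in WT and between 75.6 and 203 FPKM in HET at 48 h, and HET 48 h replicate 3 has the smallest sum of the 48 h libraries (217 FPKM).

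Type VI collagen changed chain by chain. Col6a3, the large chain of the classic type VI filament and the most abundant of the class, rose from 12 to 48 h by a log2 fold change of 1.16 in WT (limma adjusted p = 0.0122, SE 0.35) and 1.25 in HET (limma adjusted p = 0.0294, SE 0.35). Its WT counts were 1929, 878 and 894 at 12 h and 3134, 2579 and 2087 at 48 h, without overlap. Col6a2 moved the other way in WT, with 918, 564 and 498 at 12 h and 371, 287 and 335 at 48 h, a log2 fold change of -0.95 (limma adjusted p = 0.00569, SE 0.25). Col6a1, whose protein joins with those of Col6a2 and Col6a3, was not called by limma in either genotype. The FPKM ratio of Col6a3 to Col6a1 went from 0.944 ± 0.11 at 12 h to 2.99 ± 0.095 at 48 h in WT, and from 0.957 ± 0.35 to 1.78 ± 0.60 in HET (SD, n = 3 each). In HET, Col6a2 fell from 12 to 24 h by 0.86 on the log2 scale (limma adjusted p = 0.0249, SE 0.25).

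Col6a5 (ENSMUSG00000091345, chr9:105856078-105960643, minus strand), 1 of the alternative type VI chains, peaked at 24 h. Its WT counts were 89.5, 156 and 102 at 12 h, 308, 250 and 294 at 24 h, and 188, 276 and 219 at 48 h. Its HET counts were 137, 120 and 154 at 12 h, 388, 286 and 343 at 24 h, and 107, 103 and 216 at 48 h. For WT and HET alike, every 24 h culture lay above every 12 h culture. For WT from 12 to 24 h, the authors' deposited table calls 3 collagens, Col6a5 as higher and Col6a2 and Col25a1 as lower, and 4.97% of all genes. Limma called Col6a5 alone (2.33% of the family, against 3.62% of all genes), with a log2 fold change of 1.32 (limma adjusted p = 0.0222, SE 0.26). That call was lost without any 1 of the 6 WT libraries at 12 and 24 h. In HET the log2 fold change from 12 to 24 h was 1.3 (limma adjusted p = 0.00382, SE 0.26), and from 24 to 48 h it was -1.33 (limma adjusted p = 0.0239, SE 0.26). The second of these was lost without HET 24 h replicate 1 or 5 or HET 48 h replicate 1 or 2. Col6a4 rose from 12 to 48 h in both genotypes from means of 17.9 and 14.1 normalized counts, and Col6a6 rose in HET from 12 to 24 h (17.6 to 41.0 mean normalized counts, limma adjusted p = 0.0263).

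From 12 to 24 h in HET, the authors' deposited table calls 8 collagens and 18.3% of all genes. Of these, Col4a2, Col18a1, Col5a1 and Col8a1 were not called by limma. Limma called 4 collagens over this interval, 9.30% of the family against 18.9% of all genes. Col5a2, Col6a5 and Col6a6 were higher and Col6a2 lower, 6.98% and 2.33% against 13.1% and 5.76% of all genes. The count was 1 without HET 12 h replicate 2 (against 6.63% of all genes) or HET 24 h replicate 5 (10.7%) and 7 without HET 48 h replicate 3 (23.1%), which enters through the shared estimate of spread. From 24 to 48 h, 14 collagens were called in WT, 32.6% against 27.7% of all genes, of which 11 were higher and 3 lower (25.6% and 6.98%, against 17.4% and 10.3%). Col13a1 fell by 3.26 on the log2 scale over this interval, and Col1a2 and Col5a1 rose by 2.73 and 2.12, each with a limma adjusted p of 0.00343. That count was 9 without WT 24 h replicate 2, against 13% of all genes, and 8 without WT 48 h replicate 2, against 13.4%. In HET, 3 were called over this interval, Col3a1, Col11a1 and Col6a5, 6.98% against 2.49% of all genes. This HET count was 12 without HET 48 h replicate 3, against 14.9% of all genes. It was 0 without HET 24 h replicate 1 or 5 or HET 48 h replicate 1 or 2, where 9 to 16 collagens had an unadjusted p under 0.05 (17 of 43 with every library, against 19.1% of all genes).

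Of the fibril-associated collagens, Col16a1 and Col9a2 rose from 12 to 48 h in both genotypes. Col16a1 had a log2 fold change of 0.80 in WT (limma adjusted p = 0.0120, SE 0.24) and 0.78 in HET (limma adjusted p = 0.0408, SE 0.24). Col12a1, which links fibrils in tendon and ligament, was the most abundant of this class. Its WT counts were 7046, 6203 and 8364 at 12 h and 13763, 11605 and 5620 at 48 h, so the groups overlapped and limma did not call it. In HET it was called from 12 to 48 h in the authors' deposited table and by limma without HET 48 h replicate 3. Col14a1, Col19a1, Col20a1, Col22a1 and Col9a3 were not called from 12 to 48 h in either genotype.

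The short-chain collagen Col8a1, a component of the subendothelial matrix, rose in both genotypes. Its counts were 3508, 3564 and 2572 at 12 h and 6663, 6646 and 3871 at 48 h in WT, which did not overlap, and the log2 fold change was 0.80 (limma adjusted p = 0.0120, SE 0.24). In HET it had 2177, 2034 and 2179 at 12 h and 4809, 4209 and 2293 at 48 h, with a log2 fold change of 0.76 (limma adjusted p = 0.0467, SE 0.24). Its class members Col8a2 and Col10a1 were not called by limma in any comparison with every library. Neither were Col7a1 (mean 0.971 FPKM), the collagen of the anchoring fibrils of skin, nor Col15a1 and Col18a1, basement membrane collagens whose ends carry antiangiogenic fragments. Col18a1 had between 17.3 and 40.8 FPKM over the 18 libraries, and the authors' deposited table calls it higher in HET from 12 to 24 h (log2 fold change 0.55, adjusted p = 0.0443). Col28a1, which is known from peripheral nerve, had a mean of 9.82 FPKM and was likewise not called by limma in any comparison with every library, nor was Col26a1.

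Transmembrane collagens held the largest falls. Col13a1 (ENSMUSG00000058806, chr10:61838236-61979108, minus strand) sits at adhesion sites and at the neuromuscular junction. Its WT counts were 540, 699 and 505 at 12 h, 247, 617 and 507 at 24 h, and 25.5, 46.9 and 68.8 at 48 h. All WT cultures at 48 h were far under all earlier ones, and the log2 fold change from 12 to 48 h was -3.69 (limma adjusted p = 6.12e-05, SE 0.51). Its HET counts were 393, 452 and 505 at 12 h, 246, 504 and 684 at 24 h, and 71.9, 81.6 and 337 at 48 h, so HET replicate 3 lay inside the 24 h range. The HET log2 fold change was -1.82 (limma adjusted p = 0.0289, SE 0.51), and -2.53 (limma adjusted p = 6.97e-04) without that replicate. It was not called without any 1 of the other 5 HET libraries at 12 and 48 h (limma adjusted p from 0.0566 to 0.151).

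Col25a1 (ENSMUSG00000058897, chr3:130131501-130599877), a neuronal membrane collagen required for motor innervation of muscle, had WT counts of 748, 538 and 508 at 12 h, 381, 315 and 245 at 24 h, and 201, 103 and 128 at 48 h. The WT times did not overlap, and the log2 fold change from 12 to 48 h was -2.09 (limma adjusted p = 1.22e-04, SE 0.32). In HET it had 544, 481 and 276 at 12 h and 157, 255 and 345 at 48 h. These groups overlapped, and the log2 fold change of -0.79 was not called (limma adjusted p = 0.101). Without HET 48 h replicate 3 it was -1.05 and was called (limma adjusted p = 0.0279). The other transmembrane members, Col17a1 and Col23a1, were not called by limma in any comparison with every library.

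Whether the time course differed between genotypes was tested as the interaction of genotype with the change from 12 to 48 h. No collagen was called, 0 of 43 and 0% of all genes, and 4 collagens had an unadjusted p under 0.05 (9.30%, against 8.92% of all genes). The 2 with the lowest p were Col25a1, with a difference of 1.29 in log2 fold change (SE 0.45), and Col6a5, with -1.02 (SE 0.37), both with a limma adjusted p of 0.548. Calls made in WT and not in HET therefore do not show that the genotypes differed.

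The genotype comparisons asked which collagens differed between HET and WT at each time. At 12 h limma called 0 of 43, with 0.00581% of all genes called. At an unadjusted p under 0.05 there were 6 collagens, 14% against 8.41% of all genes, and these 6 were all lower in HET. That count was 2 without WT 12 h replicate 1, against 6.39% of all genes, and 3 without HET 12 h replicate 2, against 3.7%. It was 4 without HET 12 h replicate 1, against 12.2%, and 9 without HET 48 h replicate 3, against 10.6%. In 12 collagens the genotypes did not overlap, 27.9% against 15.1% of all genes, and in each of them every HET culture was the lower. Those 12 were Col4a1, Col4a2, Col5a1, Col5a2, Col8a1, Col11a1, Col12a1, Col13a1, Col14a1, Col16a1, Col18a1 and Col28a1. In all, 36 of 43 collagens had a log2 difference under 0, against 52.8% of all genes, with a median of -0.34 against -0.016 over all genes. All 11 fibrillar and all 8 fibril-associated genes were among the 36. At this time 5 of 5 endothelial markers were also under 0 (median -0.26), as were 4 of 5 macrophage, 3 of 4 satellite glia, 3 of 6 mural, 5 of 10 fibroblast and 3 of 10 sensory neuron markers, with medians from -0.087 to 0.074. None of these markers was called by limma, and their part in the collagen differences was not tested.

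The 2 collagens with the lowest p at 12 h were Col4a2 and Col12a1. Col4a2 (chr8:11312805-11449287) had 13044, 9697 and 8350 in WT and 7994, 4886 and 6820 in HET at 12 h, with a log2 difference of -0.66 (SE 0.20). Col12a1 had 7046, 6203 and 8364 in WT and 3826, 3934 and 4647 in HET, with a log2 difference of -0.80 (SE 0.31). In both genes the genotypes did not overlap, and both had a limma adjusted p of 0.577. At 24 h the genotypes overlapped for Col12a1, which had 5570, 6973 and 7581 in WT and 4369, 7972 and 6694 in HET. The gap between these times was not tested.

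At 24 h limma called 0 collagens, again with 0.00581% of all genes called, and 1 had an unadjusted p under 0.05 (2.33%, against 1.15% of all genes). This was Col6a4, with a log2 difference of -0.84 (SE 0.38), followed by Col11a2, with -0.42 (SE 0.22), both with a limma adjusted p of 1. In 1 collagen, Col22a1, the genotypes did not overlap, with HET lower, 2.33% against 5.60% of all genes.

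At 48 h limma called 0 collagens and 0% of all genes, and 11 collagens had an unadjusted p under 0.05 (25.6%, against 22.0% of all genes). Of these, 3 were higher and 8 lower in HET, 6.98% and 18.6% against 8.72% and 13.3% of all genes. Col5a2 was lower in HET, with a log2 difference of -1.28 (limma adjusted p = 0.0781, SE 0.38), and its per-culture counts given above overlapped through WT 48 h replicate 3. Col13a1 was higher in every HET culture, by 1.51 (limma adjusted p = 0.105, SE 0.51). Col1a2, Col5a1 and Col5a3 had differences of -0.93, -1.03 and -0.99, and Col1a1 had 0.47. Without HET 48 h replicate 3 these differences were nearer to 0: -0.77 for Col5a2, 0.80 for Col13a1, -0.30 for Col1a2, -0.44 for Col5a1 and -0.52 for Col5a3, with 3 collagens at an unadjusted p under 0.05, against 11.5% of all genes. That count was also lower without WT 48 h replicate 1 (5, against 18.3%) or replicate 2 (4, against 10.6%). It was 12 without WT 48 h replicate 3, against 24.7%. Col5a2 and Col8a1 were called without WT 48 h replicate 3, where 5.41% of all genes were. Col5a2 and Col5a1 were called without HET 48 h replicate 1, where 4.28% of all genes were. The genotypes did not overlap in 5 collagens (11.6%, against 24.0% of all genes). Every HET culture was higher than every WT culture for Col4a3, Col6a1, Col6a2 and Col13a1 (9.30%, against 9.57% of all genes) and lower for Col4a2 (2.33%, against 14.4%).

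Same-numbered cultures at 48 h deviated together across genes, so a fit with a term for the replicate number is given for that time. The term was fitted over all 18 samples, so numbers 1 and 2 each had 1 shared effect across 12, 24 and 48 h. It is therefore not a pairing within 48 h alone. Between WT and HET deviations, r for number 1 was 0.188 at 12 h and 0.1085 at 24 h. For number 2 it was 0.032 and -0.207, so deviating together was not shown for that number at those times. With the replicate block, limma called 8 collagens at 48 h, among 1790 genes in all. Col5a2, Col5a1, Col8a1, Col1a2, Col19a1 and Col12a1 were lower and Col13a1 and Col6a2 higher, with limma adjusted p from 0.00365 (Col5a2) to 0.0457 (Col12a1). In the authors' deposited table, 2 collagens had an adjusted p under 0.05 at 48 h, Col5a2 with a log2 fold change of -1.26 and Col13a1 with 1.79, and 5.98% of all genes did. The genotype difference of these 2 genes thus depends on the model used.

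**Figure D4:**
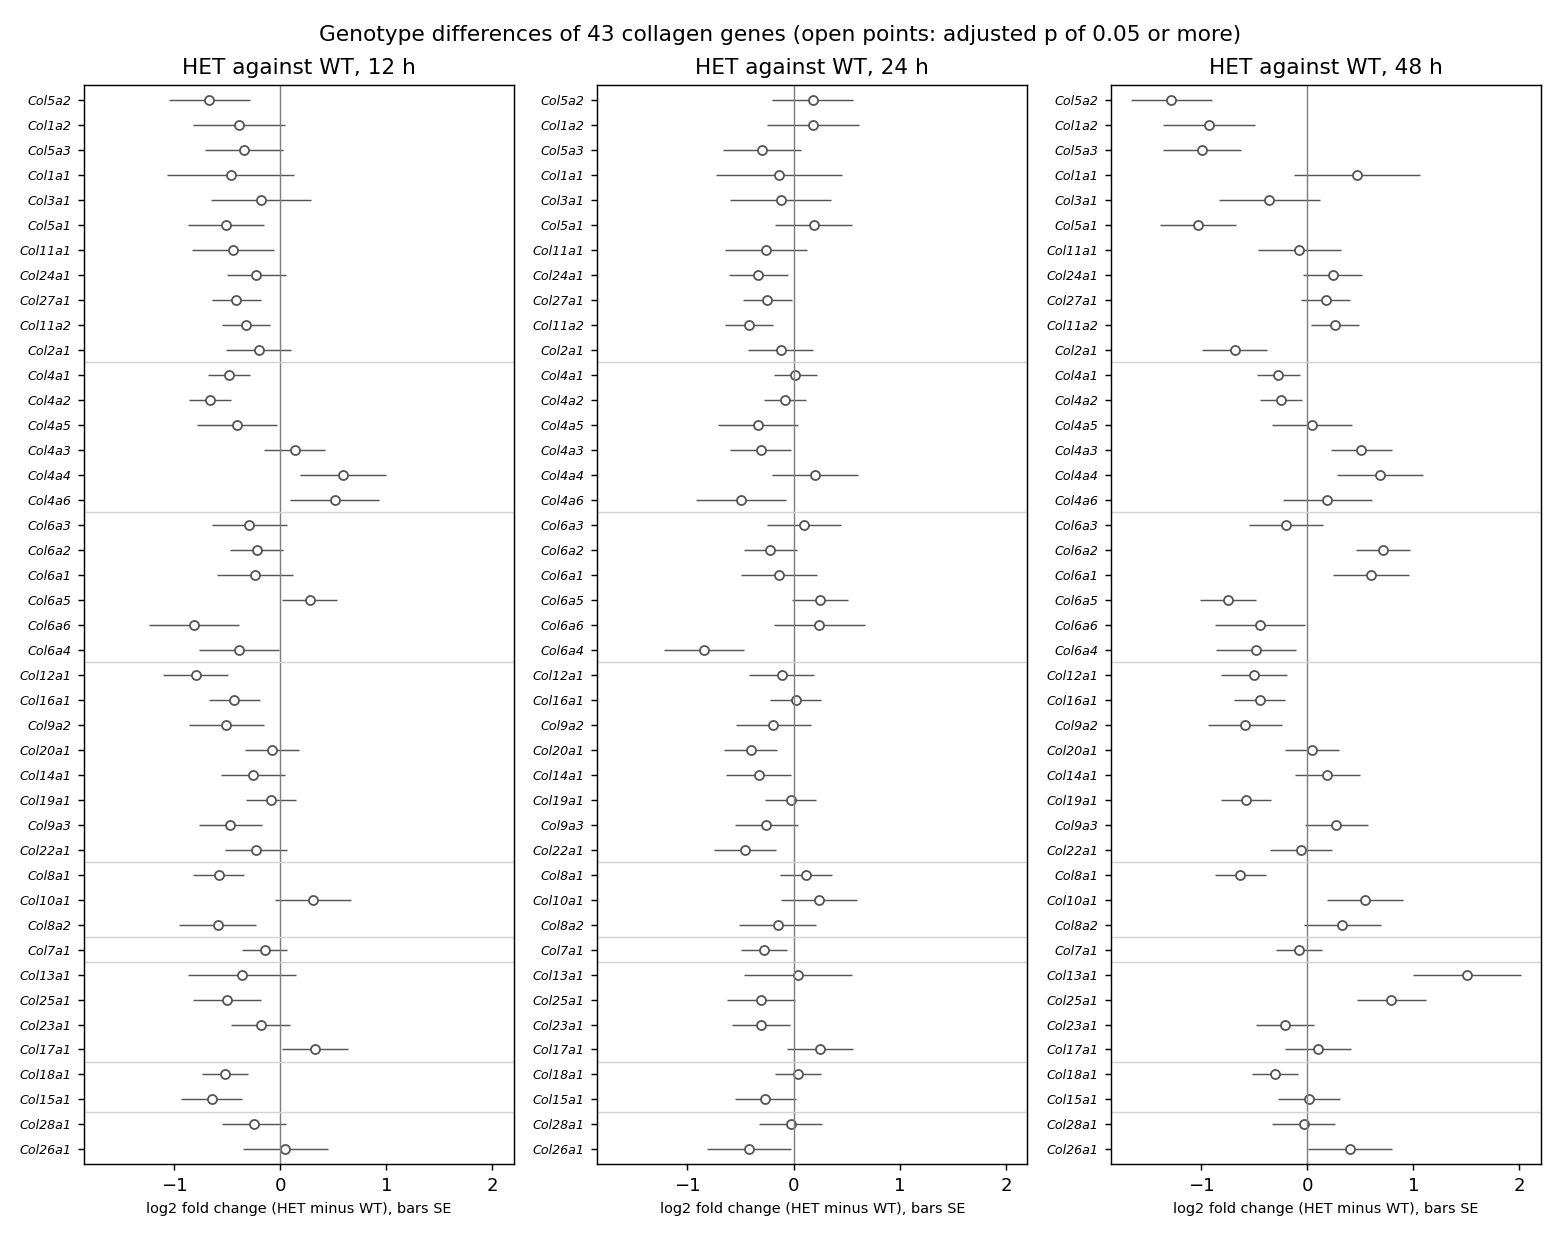
Log2 difference between HET and WT (x, HET minus WT on log2(normalized count + 1), bars SE) of the 43 collagens (y, by class) at 12, 24 and 48 h; all points are open because none had a limma adjusted p under 0.05 without the replicate block. Most points lie left of 0 at 12 h, near 0 at 24 h and on both sides at 48 h.

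Averaged over times and without the replicate block, limma called 0 collagens, with 0.0174% of all genes called. At an unadjusted p under 0.05 there were 9 (20.9%, against 13.5% of all genes). The lowest p were those of Col4a2, with a log2 difference of -0.33 (limma adjusted p = 0.310, SE 0.11), and Col5a2, with -0.59 (limma adjusted p = 0.313, SE 0.22). The median over the family was -0.17, against -0.021 over all genes, and 34 of 43 were under 0, against 56.1% of all genes.

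Genes that make, bind or degrade collagen were read from 6 lists with 53 measured genes. In WT 30 rose and 6 fell from 12 to 48 h, 56.6% and 11.3%, against 30.0% and 17.1% of all genes. In HET 25 rose and 0 fell, 47.2% and 0%, against 10.6% and 3.62%. These HET calls depend on single libraries. Without HET 12 h replicate 2, HET 48 h replicate 1 or HET 48 h replicate 2, limma called 0% of all genes over this interval, and so none of these. Between genotypes, without the replicate block, 0 of 53 were called at any time or on average. In those comparisons 0% to 0.0174% of all genes were called. With the block 10.4% of all genes were called at 48 h, and these lists are not given for that fit. The median log2 fold change of the 53 genes from 12 to 48 h was 0.77 in WT and 0.57 in HET.

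Enzymes and chaperones that modify and fold the chains formed the largest of these lists. Of 17, 15 rose and 1 fell (Leprel1) in WT, and 14 rose and 0 fell in HET. Fkbp10, a prolyl isomerase of the endoplasmic reticulum, went from a mean of 393 to 1646 normalized counts in WT (log2 fold change 2.04, SE 0.34, limma adjusted p = 2.01e-04) and from 257 to 832 in HET (1.55, SE 0.34, limma adjusted p = 0.0152). Plod2, the lysyl hydroxylase of the telopeptides, had log2 fold changes of 1.88 in WT and 1.44 in HET. Leprel2, a prolyl 3-hydroxylase family member, had 1.60 and 1.35. At 48 h, with HET 48 h replicate 3 included, 16 of the 17 had a log2 difference between HET and WT under 0, against 54.8% of all genes. The median was -0.38 for the list and -0.034 over all genes. Without the replicate block, limma called 0 of the 17 and 0% of all genes.

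Of 8 propeptide processing genes, Pcolce2, Adamts14 and Bmp1 rose in both genotypes. Pcolce2, an enhancer of the procollagen C-proteinase that Bmp1 encodes, went from a mean of 2993 to 20400 normalized counts in WT (log2 fold change 2.74, SE 0.29, limma adjusted p = 2.2e-05) and from 2380 to 6774 in HET (1.49, SE 0.29, limma adjusted p = 0.0124). Of the 5 lysyl oxidases that cross-link fibrils, 4 rose and Loxl4 fell in WT, and Loxl2 and Loxl3 rose in HET. Loxl3 went from a mean of 72.2 to 1482 normalized counts in WT (log2 fold change 4.25, SE 0.67, limma adjusted p = 1.39e-04) and from 55.8 to 533 in HET (2.91, SE 0.67, limma adjusted p = 0.0163). Loxl2 had log2 fold changes of 2.18 in WT and 1.54 in HET, and Lox had 1.5 in WT.

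Of 7 fibril-binding proteoglycans, Bgn and Lum rose in WT and Bgn in HET. Bgn, or biglycan, had log2 fold changes of 2.16 in WT and 1.56 in HET, and Lum, or lumican, had 1.03 in WT. Of 10 collagen receptors, Itga2, Itgb1, Ddr1 and Mrc2 rose in both genotypes and Itga10 fell in WT. Itgb1, the shared beta chain of the collagen-binding integrins, went from a mean of 24254 to 54181 normalized counts in WT (log2 fold change 1.15, SE 0.15, limma adjusted p = 5.2e-05). Mrc2, an endocytic collagen receptor, had log2 fold changes of 1.95 in WT and 1.87 in HET. Of 6 degrading enzymes, Mmp2 and Mmp14 rose and Mmp9, Mmp13 and Ctsk fell in WT, and Mmp2 rose in HET. Mmp9, a gelatinase, had a log2 fold change of -2.90 (limma adjusted p = 0.00814, SE 0.82) and Mmp13, a collagenase, -2.63 (limma adjusted p = 0.00131, SE 0.56).

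**Figure D5:**
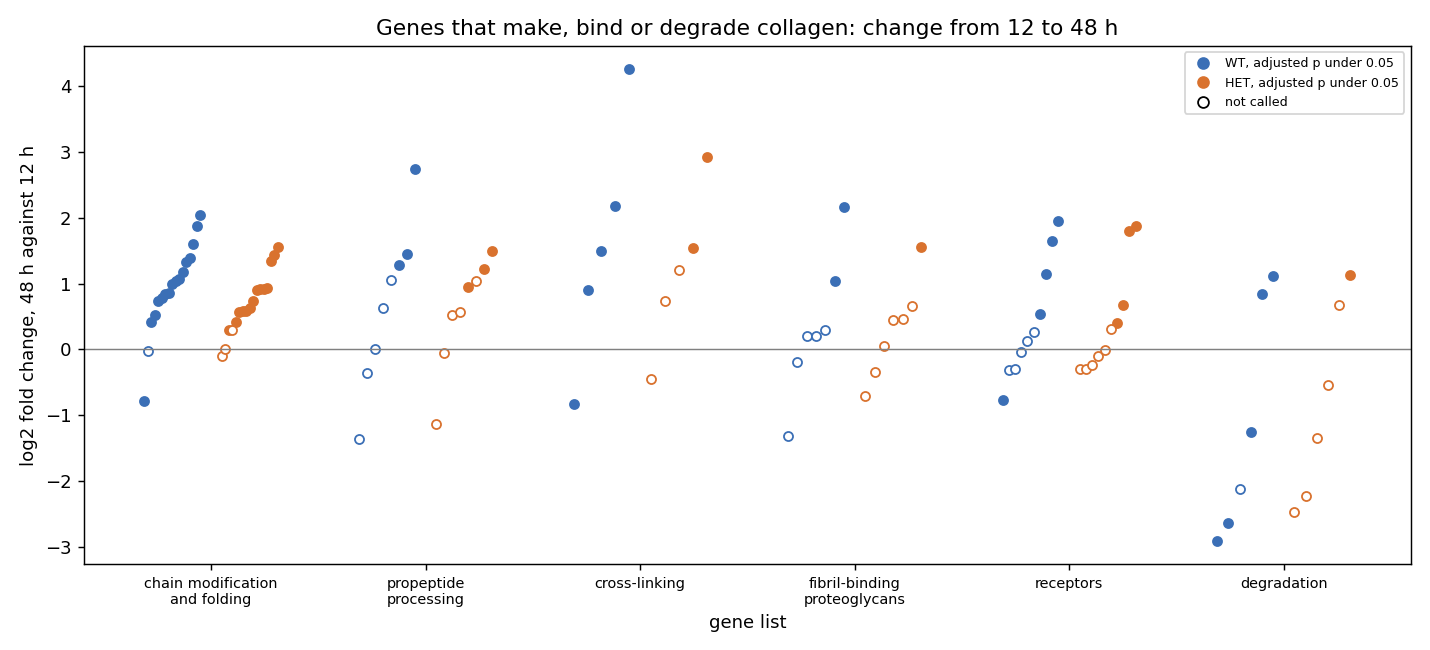
Log2 fold change from 12 to 48 h (y) of each of 53 genes in 6 lists (x) in WT (blue) and HET (orange); filled points have a limma adjusted p under 0.05. Chain modification and folding genes lie mostly above 0 in both genotypes, and degradation genes lie on both sides.

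Markers of other cells moved over the same interval, and their part in the collagen changes was not tested. Of 10 fibroblast markers, Lum, Twist2 and Lox rose and Dpt, Pi16 and Thy1 fell in WT from 12 to 48 h, and Twist2 alone was called in HET. Lum and Lox also belong to the lists above, and neurons express Thy1 as well. The list summed to between 320 and 538 FPKM at 12 h and between 287 and 371 at 48 h in WT, and to between 295 and 465 and between 277 and 334 in HET. Without Thy1, a choice made after its values were seen, the ranges were 38.1 to 78.9 and 53.5 to 74.0 FPKM in WT and 45.7 to 75.9 and 58.6 to 81.4 in HET, which overlapped between times. Of 6 mural cell markers Pdgfrb rose in both genotypes and Notch3 fell in WT, with sums of 46.8 to 54.5 FPKM at 12 h and 68.3 to 80.5 at 48 h in WT and of 53.4 to 59.6 and 47.8 to 81.7 in HET. Of 5 endothelial markers Pecam1, Cdh5 and Cldn5 fell in WT and Cldn5 in HET, with sums of 72.6 to 105 and 42.7 to 59.9 FPKM in WT and of 55.6 to 89.2 and 47.5 to 70.5 in HET. The 5 macrophage markers summed to between 14.4 and 21.6 FPKM at 12 h and between 36.5 and 74.6 at 48 h in WT and to between 12.8 and 18.1 and between 21.8 and 32.4 in HET, with Cd68 higher in both genotypes and Ptprc lower in WT. Of 4 satellite glia markers Glul rose and Fabp7 and Apoe fell in WT and Apoe fell in HET, with sums of 432 to 597 and 217 to 236 FPKM in WT and of 358 to 637 and 219 to 289 in HET.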

How the data were processed

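RNA was sequenced from cultured mouse DRG neurons in 18 samples, 6 groups of 3. The single deposited table gives, per the file headers, a normalized count, an FPKM value and a plain adjusted value per gene and sample. The signal columns (normalized counts and plain adjusted values) were made by the authors and are not raw counts: no value is whole or 0, and the log values of the plain columns span 15 of 17 possible dimensions, so 2 directions between samples were removed before deposit. The deposited columns of log2 fold changes, p-values and the rank score hold the authors' own comparisons. CASAVA 1.8.2, edgeR and mm10 are named per the submitters' processing notes. The aligner, counter, annotation and strand setting are not given in the sources used here.

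Because the values are not counts, the planned count test was replaced by limma 3.58.1 (R 4.3.3) on log2(normalized count + 1), with 6 group means over all 18 samples, 12 residual degrees of freedom, moderated variances with a trend, and Benjamini-Hochberg adjustment over all 17198 genes within each of 11 comparisons at 0.05. Fold changes on this scale understate low genes. A minimum mean of 1 removed 0 genes, and all 43 collagens passed. The code was tested on simulated data. The result of 1 marker list, for Schwann cells, is not reported here. The members and lists were chosen with earlier results of these data known. Named collagens were the most abundant of each class and, per comparison, up to 4 called genes with the largest change, or else the 2 with the lowest p; for pathway lists, up to 3 genes. Genes given beside these, such as Leprel1, Loxl4, Itga10 and the other collagens whose values are printed, were added after their values were seen or to account for every member.

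Whether equal replicate numbers pair WT and HET samples was checked by correlating their deviations from group means: r was 0.321, 0.209 and 0.461 at 48 h, where all 3 exceeded 0.1, and ranged from -0.207 to 0.258 at 12 and 24 h. Gene positions are GRCm38 (mm10) from GENCODE, and all 43 identifiers matched. Alternatives were other pseudocounts, other filters, the plain columns, the 2 removed directions as terms, a replicate block, and leaving out each sample.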

Additional observations from a re-analysis of the deposited data

How the results depend on the processing

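Pseudocounts of 0.1 and 5, a minimum mean of 5, no filter and the plain adjusted columns left each count of called collagens within 1.5 times its value and each named collagen on its side of the threshold. With the replicate block, the number of collagens called (and the share of all genes called) was 8 (10.4%) for HET against WT at 48 h, 3 (1.19%; Col5a2, Col12a1 and Col8a1) averaged over times, 2 (7.08%) for WT from 12 to 24 h, 10 (24.1%) for HET from 12 to 24 h and 14 (12.1%) for HET from 24 to 48 h. With terms for the removed directions it was 2 (6.58%) for WT from 12 to 24 h and 5 (4.89%) for HET from 24 to 48 h. With the block and these terms together it was 8 (10.3%), 4 (4.12%), 3 (12.4%), 9 (27.8%) and 11 (12.4%) for the same 5 comparisons as the block alone. The cause was not tested.

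Leaving out 1 sample at a time moved the counts of called collagens. In brackets is the share of all genes called in a fit with that count. At 48 h between genotypes the count ran from 0 (0%) to 2 (5.41%). For WT it ran from 0 (1.15%) to 2 (3.09%) from 12 to 24 h. It ran from 8 (13.4%) to 17 (26.1%) for WT from 24 to 48 h, and from 14 (41.4%) to 19 (45.7%) from 12 to 48 h. For HET it ran from 1 (6.63%) to 7 (23.1%) from 12 to 24 h. It ran from 0 (0%) to 16 (28.4%) for HET from 12 to 48 h, and from 0 (0%) to 12 (14.9%) from 24 to 48 h. None of the 30 differences named by the rule for each comparison changed sign under these alternatives; other printed differences were not followed. Depth is unknown, so precision for low genes such as Col6a4 rests on 3 samples per group.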
